A study of Homo sapiens with 59 samples.

Results

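GPR34, GPR82, GPR183 and GPR18 are 4 genes for G protein-coupled receptors of myeloid and lymphoid cells that bind lipids, or are close relatives of receptors that do. They were followed in THP-1 macrophages treated with rosiglitazone (RSG) through every probe of the array that is annotated to one of them. This gave 5 of 24531 probes, 2 for GPR34 and 1 for each other gene, and 4 of the 11515 genes tested. The genes were picked because their levels were lower with RSG at 8 and 12 h, so those differences are described below without a test. The 4 genes share no other criterion, and GPR34 and GPR82 lay close to background for much of the time course.

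THP-1 is an established human monocytic leukaemia cell line. All cells were differentiated towards macrophages with the phorbol ester PMA at 10 ng/ml for 40 h and then kept in medium without PMA for 2 h, so DMSO cells share this history with RSG cells. The treatments were 1 µM RSG, a thiazolidinedione that activates the nuclear receptor PPARG, and DMSO alone. RNA was hybridised to Illumina bead arrays after 0.5, 1.5, 3, 8 and 12 h, which made 10 groups with 6 arrays in each, except 5 in RSG at 1.5 h, and 59 arrays in all. The labels number the replicates but do not say whether they are separate cultures, so the spread between arrays may be technical. The model is a single cell line.

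These receptors signal mainly through inhibitory G proteins, which lower cyclic AMP and steer the movement of cells. GPR34 answers to lysophosphatidylserine, a phospholipid that has lost a fatty acid, and marks microglia and some tissue macrophages. GPR82, its neighbour on the X chromosome, has no settled ligand. GPR183, also known as EBI2, is the receptor of dihydroxycholesterols and guides B cells, T cells and dendritic cells in lymphoid tissue. GPR18 has been described as a receptor of N-arachidonoyl glycine and of resolvin D2, and its ligand remains debated.

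The 4 genes form 2 pairs in the genome. In the RefSeq annotation (GRCh38.p14), GPR34 and GPR82 lie on chromosome X within the bounds of CASK, which encodes a scaffold protein, and GPR183 and GPR18 lie on chromosome 13 within the bounds of UBAC2, which encodes a membrane protein of the endoplasmic reticulum. GPR82 is read from the strand opposite to CASK, and GPR183 and GPR18 from the strand opposite to UBAC2. RefSeq promoters were matched for 3 of the 4 genes. The 250 bases before each start are shown for these 3 genes, which belong to a set chosen for lower levels with RSG. They span chrX:41723931-41724180 on the plus strand for GPR82, chr13:99307400-99307649 on the minus strand for GPR183 and chr13:99258380-99258629 on the minus strand for GPR18. Capitals mark AGGAAG, a core of sites bound by ETS factors such as the macrophage factor PU.1, on either strand (CTTCCT where it lies on the other strand).
GPR82: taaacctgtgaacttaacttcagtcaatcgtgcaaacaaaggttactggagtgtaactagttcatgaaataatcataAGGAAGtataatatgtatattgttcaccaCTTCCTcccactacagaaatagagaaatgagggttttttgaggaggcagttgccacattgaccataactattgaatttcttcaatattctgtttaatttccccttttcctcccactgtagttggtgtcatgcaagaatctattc
GPR183: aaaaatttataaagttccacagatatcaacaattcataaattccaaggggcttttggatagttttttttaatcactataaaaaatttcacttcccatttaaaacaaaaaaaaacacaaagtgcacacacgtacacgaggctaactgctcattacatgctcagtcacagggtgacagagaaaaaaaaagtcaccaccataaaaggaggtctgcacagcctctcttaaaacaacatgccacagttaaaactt
GPR18: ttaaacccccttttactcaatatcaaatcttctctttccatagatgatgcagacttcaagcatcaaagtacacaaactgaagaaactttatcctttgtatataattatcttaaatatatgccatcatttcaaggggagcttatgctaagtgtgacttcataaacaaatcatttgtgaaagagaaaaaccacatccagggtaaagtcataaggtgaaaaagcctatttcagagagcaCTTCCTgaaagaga

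The window of GPR82 held 2 matches to AGGAAG, that of GPR18 held 1 and that of GPR183 held 0. Among all 35116 promoter windows of this length, 28.7% held at least 1 match and 5.77% at least 2. A second ETS-type core, GAGGAA, was found 2 times in GPR82, where 1 match overlapped an AGGAAG match, and 0 times in GPR183 and GPR18, against 23.6% of all windows with a match. The half-site of nuclear receptors, AGGTCA, was found in none of the 3 windows and in 12.1% of all windows. The direct repeat of AGGTCA with 1 base of any kind between its copies, the form bound by PPARG with RXR, was found in none of the 3 and in 6 of all windows. These counts describe letters in the windows, searched on both strands, and not binding.

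Levels are log2 intensities after background correction and quantile normalization, and a probe is called detected on an array where its detection p, set against negative control beads, was under 0.01. Mean raw signal ran from 319.3 to 1401.8 per array, with 12186 to 13941 probes detected. Of 10 macrophage markers 9 were tested, all detected on most arrays, and MARCO was not tested. Of the lymphocyte markers CD3E, CD3D and CD2 did not pass the detection filter, while CD3G, MS4A1, CD79A, CD79B, NKG7 and GNLY were tested. 4 of these 6 were detected on most arrays, and their mean was 6.52 to 6.93 on the 5 arrays named next and 6.62 to 7.13 on the others. 5 arrays stood apart from the others, with a median correlation to all other arrays under 0.95. They were replicate 1 of the RSG group at 8 h and, at 12 h, replicates 2 and 5 of the RSG group with replicates 4 and 6 of the DMSO group. On these 5 arrays the dendritic maturation marker LAMP3 was at 13.39 to 14.01, against 4.27 to 4.88 on the other 54, and the chemokine CXCL10 at 10.92 to 13.79, against 4.50 to 5.48. Both genes are named because they had already been seen to mark these arrays. The mean of 7 mature dendritic markers was 11.87 to 12.83 on these arrays against 6.34 to 6.91, and that of 9 macrophage markers 10.56 to 10.91 against 11.55 to 12.10. Of 8 mature dendritic markers CCL17 was not tested, and LAMP3 and CCR7 were each detected on 5 arrays, the fewest that the filter allows. The dendritic mean thus leans on genes that may have passed only through these arrays, and it is no test. The differences of the receptors between RSG and DMSO at 8 and 12 h are therefore given with 59 arrays and with the other 54. The PPARG targets PDK4 and FABP4 were higher in RSG than in DMSO at 8 h over the 54 arrays, by 3.42 (SE 0.44) and 1.55 (SE 0.18), with limma's adjusted p = 4.02e-07 and 4.02e-08. With 59 arrays neither was called, with differences of 2.70 (adjusted p = 0.0921) and 1.21 (adjusted p = 0.129).

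The members themselves were displaced on the 5 arrays apart, in opposite directions. GPR183 was at 10.20, 10.87, 10.96, 11.04 and 11.29 on them, above every one of the other 54 arrays (7.58 to 9.70). GPR18 was at 5.16, 5.31, 5.45, 6.07 and 6.19, against 6.48 to 8.01 on the other 19 arrays of 8 and 12 h and 5.98 to 8.01 on all other 54. GPR34 (4.24 to 4.44) and GPR82 (4.35 to 4.60) were not detected on any of the 5. The shifts of GPR183 and GPR18 were seen on the 2 DMSO and the 3 RSG arrays alike. GPR34 was detected on no other RSG array either. Among the arrays of 8 and 12 h, its lack of detection thus sets only the 2 DMSO arrays apart from their groups. In these bulk samples a change in the share of a cell type, a change of RNA per cell and another culture or sample cannot be told apart. The PPARG target PDK4 was at 4.39 to 5.48 on the 5 arrays apart, against 5.03 to 9.40 on the other 19 of 8 and 12 h. FABP4 was at 10.02 to 11.83, against 9.61 to 12.68. The 5 arrays keep their labels in every value given with 59 arrays.

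**Figure D1:**
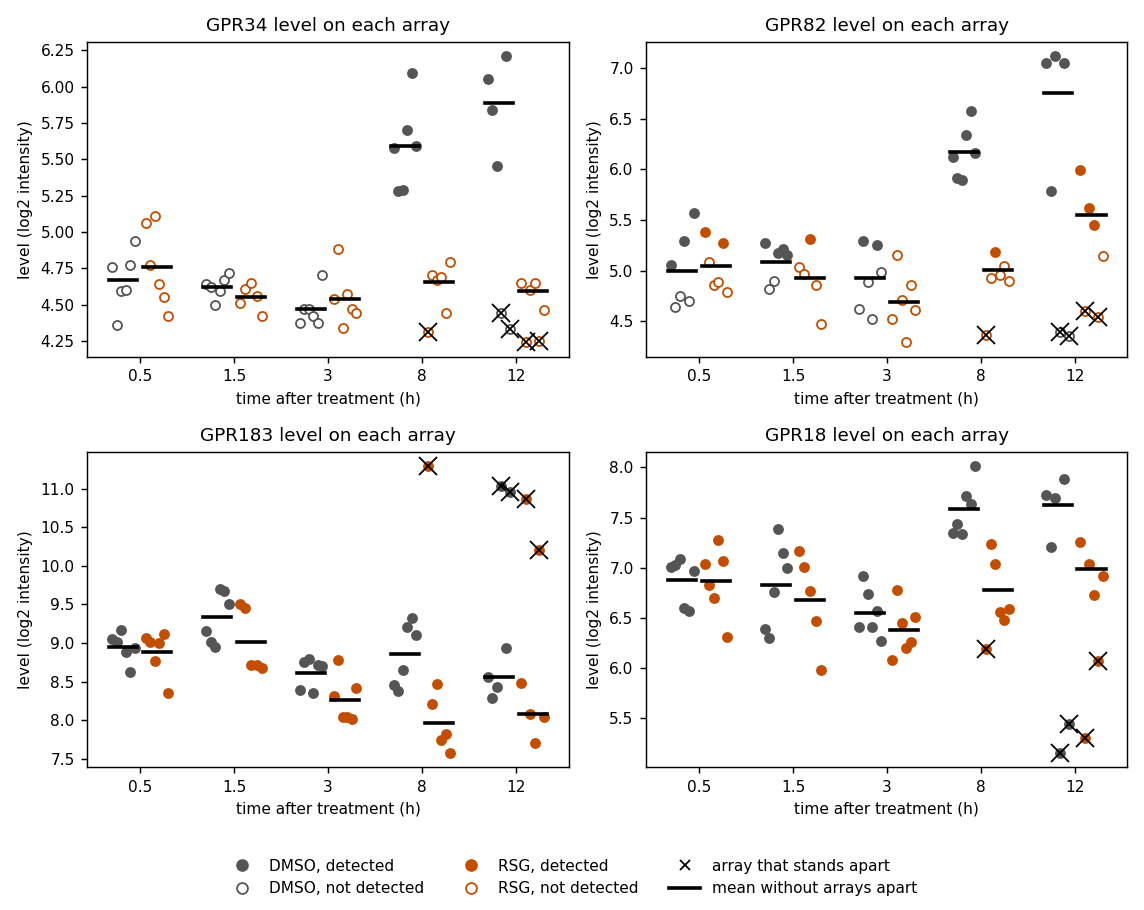
Level of each receptor on every array (log2 intensity, vertical axis) by time after treatment (h, horizontal axis) in DMSO and RSG. Filled points were detected, hollow points were not, crosses mark the 5 arrays apart and bars are group means without them. GPR34, GPR82 and GPR18 sit higher in DMSO at 8 and 12 h than at earlier times, while GPR183 sits lower in RSG.

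GPR34, the lysophosphatidylserine receptor, was detected on 10 of 59 arrays, and all 10 were DMSO arrays of 8 or 12 h. In DMSO at 8 h the 6 arrays were at 5.58, 5.28, 5.29, 5.70, 6.09 and 5.59, all detected. In RSG at 8 h they were at 4.31, 4.70, 4.67, 4.69, 4.44 and 4.79, none detected, where the first is an array apart. No RSG array reached a DMSO array, with a gap between 4.79 and 5.28. At 12 h DMSO gave 6.05, 5.84, 5.45 and 6.21 on the 4 arrays not apart, all detected, and 4.44 and 4.33 on the 2 apart. RSG at 12 h gave 4.65, 4.60, 4.65 and 4.46, and 4.24 and 4.25 on the 2 apart, none detected. Without the arrays apart the groups did not overlap at 12 h, and with them they did.

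Because RSG had no detected array, the difference of GPR34 is a bound, set against the lowest signal among detected probes of each array. GPR34 was at least 1.35-fold lower in RSG at 8 h with 59 arrays and at least 1.38-fold with 54. At 12 h it was at least 1.16-fold lower with 59 arrays, where 4 of 6 DMSO arrays were detected, and at least 1.65-fold with 54. Bounds of this kind compare group means and carry no sampling error. The measured log2 differences were -0.99 (SE 0.18) and -0.93 (SE 0.12) at 8 h, and -0.91 (SE 0.18) and -1.30 (SE 0.14) at 12 h. The second GPR34 probe was detected on 0 of 59 arrays, lay between 4.27 and 4.91 and did not pass the filter, so the higher level in DMSO rests on 1 probe.

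GPR82, the orphan receptor beside GPR34, was detected on 26 of 59 arrays. In DMSO at 8 h the arrays were at 6.12, 5.91, 5.89, 6.34, 6.58 and 6.16, all detected. In RSG at 8 h the 5 arrays not apart were at 4.93, 5.18, 4.96, 5.04 and 4.90, of which 1 was detected, and the array apart was at 4.36. The groups did not overlap. At 12 h DMSO gave 7.05, 5.79, 7.12 and 7.05, all detected, and 4.39 and 4.35 on the arrays apart. RSG at 12 h gave 5.99, 5.62, 5.45 and 5.14, of which 3 were detected, and 4.60 and 4.54 on the arrays apart. The highest RSG array at 12 h passed the lowest DMSO array, 5.79, while the other 3 DMSO arrays not apart were all above 7. The log2 difference was -1.27 (SE 0.30) with 59 arrays and -1.16 (SE 0.19) with 54 at 8 h, and -0.74 (SE 0.30) and -1.21 (SE 0.22) at 12 h. No fold is given for 8 h because 1 of 6 RSG arrays was detected, and without background correction the difference at 8 h was -0.67 with 59 arrays and -0.60 with 54.

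GPR183, the oxysterol receptor, was detected on all 59 arrays and was the brightest of the 4 probes, although levels of different probes cannot be ranked as amounts of RNA. In DMSO at 8 h it was at 8.46, 8.38, 8.65, 9.21, 9.33 and 9.10. In RSG at 8 h it was at 8.21, 8.47, 7.74, 7.82 and 7.58, and at 11.29 on the array apart. At 12 h DMSO gave 8.56, 8.29, 8.43 and 8.94, and 11.04 and 10.96 on the arrays apart, and RSG gave 8.48, 8.08, 7.70 and 8.04, and 10.87 and 10.20 on the arrays apart. The groups overlapped at both times with either set of arrays. The log2 difference at 8 h was -0.34 (SE 0.44) with 59 arrays and -0.89 (SE 0.18) with 54, so leaving out the 1 RSG array apart made it larger. At 12 h it was -0.47 (SE 0.44) and -0.48 (SE 0.22), and it was -0.14 without DMSO replicate 4 and -0.87 without RSG replicate 2, both arrays apart.

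GPR18 was detected on all 59 arrays. In DMSO at 8 h it was at 7.35, 7.44, 7.34, 7.71, 7.64 and 8.01. In RSG at 8 h it was at 7.24, 7.04, 6.56, 6.48 and 6.59, and at 6.19 on the array apart. Every RSG array was below every DMSO array at 8 h, by a narrow gap between 7.24 and 7.34. At 12 h DMSO gave 7.72, 7.21, 7.69 and 7.88, and 5.16 and 5.45 on the arrays apart, and RSG gave 7.26, 7.04, 6.73 and 6.92, and 5.31 and 6.07 on the arrays apart. At 12 h the highest RSG array, 7.26, passed the lowest DMSO array that was not apart, 7.21. The log2 difference was -0.90 (SE 0.30) with 59 arrays and -0.80 (SE 0.19) with 54 at 8 h, and -0.30 (SE 0.30) and -0.64 (SE 0.22) at 12 h. At 12 h the value with 59 arrays was -0.05 without RSG replicate 2 and -0.63 without DMSO replicate 4.

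At 8 h GPR34, GPR82 and GPR18, 3 of the 4 genes, had every RSG array below every DMSO array in both sets. Of all 11515 genes 0.738% did so with 59 arrays and 1.07% with 54. At 12 h this held for 0 of 4 with 59 arrays, against 0.00868% of all genes, and for GPR34 alone with 54, against 2.87%. By adjusted p, the share of all genes that limma called lower at 8 h was 0.00868% (59 arrays) or 0.356% (54 arrays). At 12 h it was 0.00868% or 0.66%. Since the 4 genes were chosen on these differences, nothing is read from their counts.

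**Figure D2:**
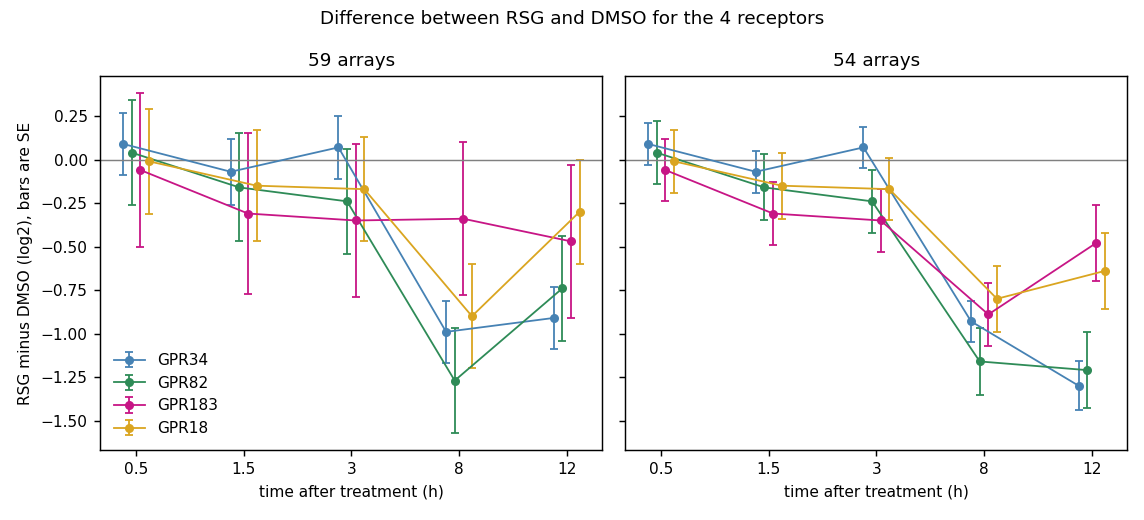
Difference between RSG and DMSO (log2, vertical axis) for the 4 receptors by time after treatment (h, horizontal axis), with 59 arrays on the left and with 54 on the right. Points are fitted differences and bars are standard errors. All differences lie between -0.35 and 0.09 up to 3 h, and at 8 h they lie between -1.16 and -0.80 with 54 arrays.

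The genes were chosen on their differences at 8 and 12 h, so the comparison was tested before 8 h. Earlier results of these data were known when the genes were chosen. None of the 4 was called at 0.5, 1.5 or 3 h with 59 or with 54 arrays by limma, where the adjusted p rounded to 1 in each case, and none had an unadjusted p under 0.05. Among all genes 0% were called at the 3 times with 59 arrays (109, 95 and 221 genes had an unadjusted p under 0.05), and with 54 arrays 0%, 0.0521% and 0%. The values nearest to a difference were those of GPR183. At 3 h its 6 DMSO arrays had a lowest, median and highest level of 8.35, 8.71 and 8.79, and its 6 RSG arrays of 8.02, 8.17 and 8.78. The groups overlapped, with a difference of -0.35 and a 95% interval of -1.23 to 0.53 with 59 arrays and of -0.70 to 0.00 with 54. GPR18 differed by -0.17 at 3 h, with an interval of -0.79 to 0.44 with 59 arrays and of -0.53 to 0.18 with 54. GPR34 was not well above background in either group up to 3 h. GPR82 was detected on 3, 4 and 2 of 6 DMSO arrays and on 2 of 6, 1 of 5 and 0 of 6 RSG arrays at 0.5, 1.5 and 3 h, so no fold is given for GPR34 at these times or for GPR82 at 3 h. These intervals leave room for early differences, which the design could not resolve.

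The 4 receptors were also followed over time in culture. From 0.5 to 3 h none was called in DMSO, with log2 differences of -0.33 (SE 0.44) for GPR183 and -0.32 (SE 0.30) for GPR18, where limma called 3.92% of all genes lower with 59 arrays and 9.08% with 54. In RSG, GPR183 stood at 9.07, 9.01, 8.77, 9.00, 9.12 and 8.35 at 0.5 h and at 8.31, 8.78, 8.04, 8.04, 8.02 and 8.42 at 3 h. All but 1 array of 3 h were below all but 1 array of 0.5 h. The difference was -0.62, not called with 59 arrays (SE 0.44, adjusted p = 0.521, 1.64% of all genes called lower) and called with 54 (SE 0.18, limma's adjusted p = 0.0123, 4.99% called lower), although none of the 5 arrays left out belongs to either group. The shared estimate of spread is what differs between these fits, since the means are the same. With 54 arrays the call held in 12 of 12 fits without 1 array (adjusted p from 0.00221 to 0.0346). GPR18 differed by -0.49 over the same interval and was not called in either set (adjusted p = 0.438 and 0.0547). The change of GPR183 from 0.5 to 3 h was not shown to differ between RSG and DMSO, with a difference between the changes of -0.29 (limma's adjusted p = 1 with 59 arrays and 0.999 with 54).

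Later in the time course the same sign of RSG against DMSO came from different courses, which are described without a test because the 8 and 12 h arrays served to choose the genes. GPR34 in DMSO went from 4.67 ± 0.20 (SD, n = 6) at 0.5 h to 5.59 ± 0.30 (SD, n = 6) at 8 h, at least 1.34-fold higher, and to 5.89 ± 0.33 (SD, n = 4) at 12 h in the 54 arrays. In RSG it was at 4.76 ± 0.28 (SD, n = 6) at 0.5 h and at 4.66 ± 0.13 (SD, n = 5) and 4.59 ± 0.09 (SD, n = 4) at 8 and 12 h, never detected. The signal was above detection in DMSO at 8 and 12 h and in no RSG group. With 59 arrays the means were 5.39 ± 0.82 (SD, n = 6) in DMSO at 12 h, and 4.60 ± 0.18 (SD, n = 6) and 4.47 ± 0.19 (SD, n = 6) in RSG at 8 and 12 h.

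GPR82 and GPR18 took a similar course in DMSO. GPR82 was at 5.00 ± 0.37 (SD, n = 6) at 0.5 h, 6.17 ± 0.26 (SD, n = 6) at 8 h and 6.75 ± 0.64 (SD, n = 4) at 12 h. In RSG it was at 5.04 ± 0.24 (SD, n = 6), 5.00 ± 0.11 (SD, n = 5) and 5.55 ± 0.35 (SD, n = 4), so part of the gain was also present with RSG at 12 h. GPR18 in DMSO was at 6.88 ± 0.23 (SD, n = 6), 7.58 ± 0.26 (SD, n = 6) and 7.62 ± 0.29 (SD, n = 4), and in RSG at 6.87 ± 0.34 (SD, n = 6), 6.78 ± 0.34 (SD, n = 5) and 6.99 ± 0.22 (SD, n = 4). With 59 arrays GPR82 was at 5.96 ± 1.33 (SD, n = 6) in DMSO at 12 h, and at 4.90 ± 0.28 (SD, n = 6) and 5.22 ± 0.58 (SD, n = 6) in RSG at 8 and 12 h. With 59 arrays the mean of GPR18 in DMSO at 12 h was 6.85 ± 1.22 (SD, n = 6), back at its 0.5 h level, because of the 2 arrays apart.

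GPR183 differed from the other 3. In DMSO it was at 8.94 ± 0.19 (SD, n = 6) at 0.5 h, 8.85 ± 0.41 (SD, n = 6) at 8 h and 8.55 ± 0.28 (SD, n = 4) at 12 h. In RSG it was at 8.89 ± 0.29 (SD, n = 6), 7.96 ± 0.37 (SD, n = 5) and 8.08 ± 0.32 (SD, n = 4), a difference of -0.92 (SE 0.18) between 8 h and 0.5 h. With 59 arrays this difference was -0.37 (SE 0.44), the array apart included, and the difference between 12 h and 0.5 h in DMSO was 0.42 (SE 0.44) with 59 arrays and -0.39 (SE 0.20) with 54, of opposite sign. Its highest group mean was at 1.5 h in both treatments, 9.33 ± 0.33 (SD, n = 6) in DMSO and 9.02 ± 0.43 (SD, n = 5) in RSG.

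Ordered by mean level over the 54 arrays, DMSO at 12 h and DMSO at 8 h were the 2 highest groups for GPR34, GPR82 and GPR18. For GPR34 all groups below these 2 had no detected array, so they have no order, and the 2 DMSO groups differed by less than their pooled SD. For GPR82 each of the first 3 steps, of 0.58, 0.62 and 0.46, was larger than the pooled SD of its 2 groups, although their ranges overlapped, and RSG 12 h followed DMSO 8 h. For GPR18 the step from DMSO 8 h to RSG 12 h was 0.59 (pooled SD 0.24), without overlap, and all other neighbours were within their spread. For GPR183 no neighbours differed by more than their pooled SD, with DMSO 1.5 h highest and RSG 8 h lowest. With 59 arrays the order changed. No neighbours of GPR82 then differed by more than their pooled SD, DMSO 12 h was the fourth group of GPR18, below both 0.5 h groups, and it became the highest group of GPR183, at 9.37 ± 1.28 (SD, n = 6).

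The arrays were also divided by the spread of all tested genes within groups, the receptors included. The first principal component of the residuals around the group means held 25.1% of their variance over the 54 arrays, and its sign splits the arrays into 2 sides that the labels do not name. DMSO replicates 1 to 3 of 8 h lie on one side, called the first, and 4 to 6 on the other, and both treatments occur on each side. In every group but RSG at 3 h the lower replicate numbers lay on one side and the higher on the other. Which side held the lower numbers changed between groups. The arrays of a group may therefore not be independent, while every SE and p given here treats them as if they were. On the first side GPR183 at 8 h was at 7.58 to 7.82 in 3 RSG arrays and at 8.38 to 8.65 in 3 DMSO arrays. On the other side it was at 8.21 to 8.47 in 2 RSG arrays and at 9.10 to 9.33 in 3 DMSO arrays. The differences were -0.78 and -0.87. Because the sides were taken from the residuals of these same arrays, a narrower spread within them follows from how they were made, and nothing is read from the ranges. The differences of GPR18 were -0.84 and -0.65, and those of GPR34 -0.75 and -1.11. GPR82 stood at a mean of 4.97 in RSG and 5.97 in DMSO on the first side and differed by -1.31 on the other. The genes were chosen on the differences at 8 h, so a lower level with RSG on both sides is no replication of them. What the sides stand for was not tested.

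Across arrays GPR34 and GPR82 were the closest pair, with Pearson's r = 0.86 over 59 arrays and 0.85 over 54, and GPR82 was the gene most like GPR34 among all 11515 in both sets. GPR82 and GPR18 gave r = 0.79 and 0.80, and GPR34 and GPR18 r = 0.71 and 0.73. GPR183 stood away from them, with r = -0.15 to GPR34, -0.20 to GPR82 and -0.30 to GPR18 over 59 arrays, and 0.14, 0.13 and 0.37 over 54. Around the group means, by contrast, GPR183 and GPR18 were the closest of the 6 pairs, with r = 0.79 over the 54 arrays, while GPR34 and GPR82 gave 0.39. These correlations describe arrays that share treatments and times, and levels of GPR34 and GPR82 that are often near background. The receptors were also chosen for lower levels with RSG at the later times, which favours a high r between their levels. Nothing is therefore read from the r between levels or from the rank of GPR82. The r around the group means was not separated from the first residual component described above, which was taken from all tested genes. No link between GPR183 and GPR18 is read from it.

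**Figure D3:**
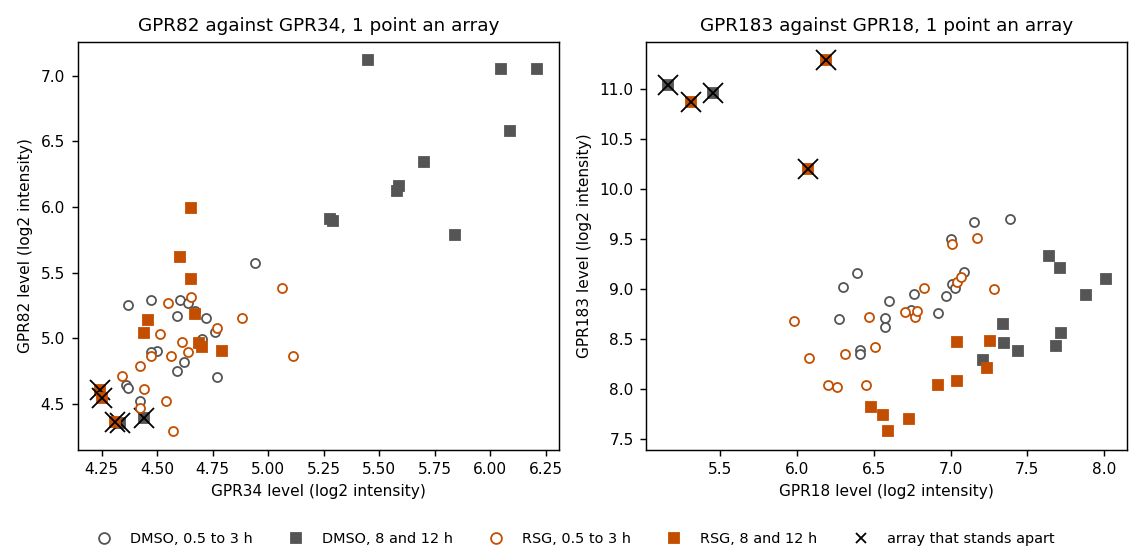
Levels (log2 intensity) of GPR82 against GPR34 and of GPR183 against GPR18, 1 point an array, by treatment and by early or late time, with crosses on the 5 arrays apart. In the first panel the DMSO arrays of 8 and 12 h that are not apart lie above all others along the GPR34 axis, from 5.28 to 6.21, and in the second the arrays apart lie at 10.20 to 11.29 of GPR183.

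Other genes with a similar pattern over the arrays were found by Pearson's r over the 59 arrays and again over the 54. Beside GPR82, those most like GPR34 were MARCHF1 and MAP2K6 over 59 arrays (r = 0.79 and 0.77) and MARCHF1 and TLR8 over 54 (0.78 and 0.78). Those most like GPR82 were GPR34, MAP2K6 and RGS18 over 59 (0.86, 0.82 and 0.81) and TLR8, GPR34 and VPS45 over 54 (0.87, 0.85 and 0.82). GPR183 was nearest to EDN1, RFTN1 and SLC1A3 over 59 (0.93, 0.90 and 0.90), and to C3AR1, NFATC1 and ACAD11 over 54 (0.85, 0.84 and 0.84), so its nearest genes had no member in common between the sets. GPR18 was nearest to ST3GAL6, THBS2 and EIF2AK1 over 59 (0.85, 0.84 and 0.83) and to RGS18, GIMAP4 and GPR82 over 54 (0.84, 0.81 and 0.80). Over the 54 arrays these genes, receptors aside, differed between RSG and DMSO by -0.99 (THBS2) to -0.03 (EIF2AK1) at 8 h. At 12 h they differed by -1.27 (THBS2) to 0.08 (EIF2AK1), so falls of this size were not confined to the receptors. The r rest in part on the arrays that served to choose the receptors, and these differences are no test.

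No tested gene around the receptors was called, where limma called 1.15% of all genes at 8 h and 1.82% at 12 h over the 54 arrays. With so few genes nothing is read from this count. UBAC2, which spans GPR183 and GPR18, was at 9.60 ± 0.41 (SD, n = 5) in RSG and at 9.78 ± 0.43 (SD, n = 6) in DMSO at 8 h over the 54 arrays, a difference of -0.17 (SE 0.19), and differed by 0.10 (SE 0.22) at 12 h. Neither was called, and limma's adjusted p was 1 and 0.948. With 59 arrays the differences were -0.07 and 0.02 (adjusted p = 0.985 and 1). CASK, which spans GPR34 and GPR82, was detected on 3 of 59 arrays and was not tested, and MED14, NYX and DOCK9 did not pass the filter either. TM9SF2, CLYBL and USP9X differed by between -0.20 and 0.06 at 8 and 12 h over the 54 arrays and were not called, so the count was 0 of the 4 tested of 8 in either set of arrays (0 with an unadjusted p under 0.05 over the 54).

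Related receptors were mostly without a called change. Of 26 receptors closest in sequence family to P2Y receptors, 15 were tested, and 0 were called between RSG and DMSO at 8 or 12 h in either set of arrays. Over the 54 arrays 3 at each time had an unadjusted p under 0.05, beside 795 and 1244 of all 11515 genes. The median difference of the 15 was -0.12 at 8 h and 0.03 at 12 h, beside -0.01 and -0.02 for all genes. Of 25 other receptors for lipids or fatty acids 16 were tested, with medians of -0.07 and -0.16. Of these 16, 2 at 8 h and 6 at 12 h had an unadjusted p under 0.05. CNR1, a cannabinoid receptor, rose by 0.51 at 8 h (SE 0.10, limma's adjusted p = 0.00228). Its RSG arrays were at 8.49 ± 0.10 (SD, n = 5) and its DMSO arrays at 7.98 ± 0.22 (SD, n = 6). At 12 h S1PR1, a receptor of sphingosine 1-phosphate, fell by 0.63 (SE 0.13, adjusted p = 0.0035) and GPR84, a receptor of medium-chain fatty acids, fell by 0.54 (SE 0.14, adjusted p = 0.0274). All 3 calls came from the 54 arrays, where limma called 1.15% of all genes at 8 h and 1.82% at 12 h. None was made with 59, where these shares were 0.0955% and 0.0261%. The calls of CNR1 and S1PR1 held when any 1 of the 11 or 8 arrays compared was left out as well, while that of GPR84 held in 3 of 8 such fits (adjusted p from 0.00654 to 0.255). These lists and those below were chosen with earlier results of these data known, which limits what their calls show.

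The enzymes that make or remove the ligands were treated in the same way, beside 1.15% of all genes called at 8 h and 1.82% at 12 h over the 54 arrays. Of 9 genes of phosphatidylserine and lysophosphatidylserine metabolism 8 were tested, and 1 was called, LPCAT3, an acyltransferase that adds fatty acids to lysophospholipids. It rose by 0.80 at 8 h (SE 0.13, limma's adjusted p = 7.98e-05) and by 0.82 at 12 h (SE 0.15, adjusted p = 0.000685) over the 54 arrays, and it was 0.68 (adjusted p = 0.133) and 0.52 higher (adjusted p = 1) with 59. Of 9 genes of N-acyl amides and resolvins all were tested, and 1 was called, ABHD4, a hydrolase of N-acyl phospholipids, which fell by 0.53 at 8 h (SE 0.12, adjusted p = 0.0126) over the 54 and was not called with 59 (adjusted p = 0.492). Of 9 genes of oxysterol metabolism 5 were tested and 0 called at 8 or 12 h, with 1 under an unadjusted p of 0.05 at 8 h over the 54 arrays.

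Genes downstream of the receptors were not called. Of all genes limma called 1.15% at 8 h and 1.82% at 12 h over the 54 arrays, and 0.0955% and 0.0261% with 59. In lists this short 0 calls lie near these shares, so nothing is read from them. Of 25 genes of inhibitory G protein signalling 22 were tested with 0 called at 8 and 12 h in both sets (2 and 3 under an unadjusted p of 0.05 over the 54), and of 17 genes of receptor desensitisation 13 were tested with 0 called (2 and 2). Their median differences over the 54 arrays were -0.01 and -0.05 at 8 h and -0.09 and -0.20 at 12 h. Of the 9 macrophage markers tested 4 had an unadjusted p under 0.05 at 12 h over the 54 arrays, beside 1244 of all 11515 genes. Of these 9 markers 1 was called lower, where 0.66% of all genes were. It was FCER1G, the signalling chain of Fc receptors, by a fall of 0.36 (adjusted p = 0.0384), a call that held in 3 of 8 fits without 1 further array (adjusted p from 0.0215 to 0.183). With 59 arrays 0 of the 9 were called at 12 h, with 0 under an unadjusted p of 0.05, and FCER1G differed by -0.29 (adjusted p = 1). It fell by 0.36 while GPR34 and GPR82 stood lower by more than 1 on the log2 scale, and its part in their difference was not tested.

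**Figure D4:**
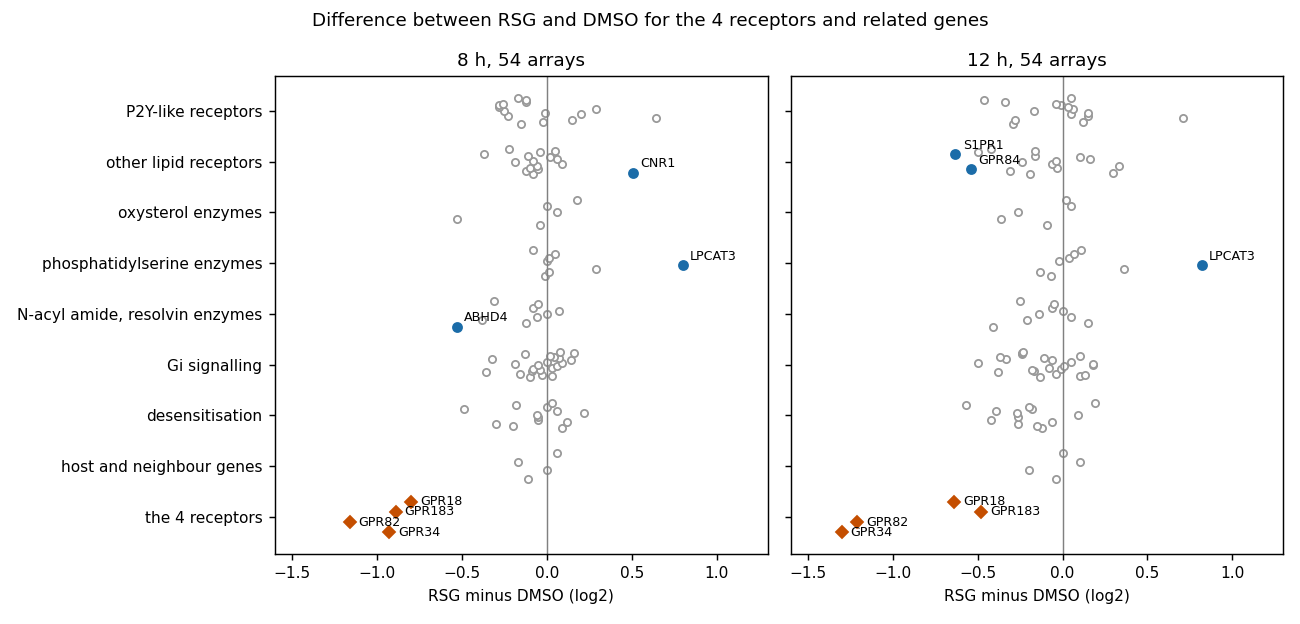
Differences between RSG and DMSO (log2, horizontal axis) at 8 h and 12 h over the 54 arrays for the 4 receptors (diamonds) and for the tested genes of 8 related groups (circles, filled and named where limma's adjusted p was under 0.05). The receptors, chosen for these falls, lie between -1.16 and -0.80 at 8 h and between -1.30 and -0.48 at 12 h. The called genes of the groups lie between -0.53 and 0.80 at 8 h and between -0.63 and 0.82 at 12 h.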

How the data were processed

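Illumina bead arrays of 59 samples were grouped by treatment and time from the labels. The first deposited table gives an intensity per probe, which the authors had not corrected for background or scaled. For each intensity the authors also deposited a detection p-value, and a second deposited table holds intensity after background subtraction and scaling, which served as an alternative. BeadStudio was named in the study's methods.

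Intensities were corrected by the normal-exponential model (offset 16), quantile-normalized and put on a log2 scale with neqc (limma 3.58.1, R 4.3.3). Of 24526 probes in both tables, 15336 passed a detection p under 0.01 on 5 or more arrays. The platform table gave 21834 probes 1 symbol and 2692 none, and 0 had several. The probe of highest mean level stood for each gene, which gave 11515 genes.

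A mean was fitted for each of 10 groups over 59 arrays, with limma's moderated two-sided test and Benjamini-Hochberg adjustment over all genes (threshold 0.05), and again without the 5 arrays whose median correlation was under 0.95. At every time RSG was set against DMSO, and 3 h with 0.5 h within each treatment. The precision is limited by the number of arrays. The 4 genes and all gene lists were chosen with earlier results of these data known. Named genes are the 4 receptors, list genes called at 8 or 12 h, the genes around the receptors, the 3 most correlated genes per receptor, and PDK4, FABP4, LAMP3 and CXCL10. Alternatives were other background corrections, the authors' scaling, filters, probes, variance models, a replicate block and leaving out arrays.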

Additional observations from a re-analysis of the deposited data

Results flagged for a closer look

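In 40 sets of 1 receptor in 1 group, 3 arrays lay far from the rest of their group, where chance flags about 1 in 20 groups. GPR34 in DMSO at 3 h was at 4.70 in replicate 6, against 4.37 to 4.47 in the other 5 arrays, all of them not detected. GPR82 in RSG at 8 h was at 4.36 in replicate 1, against 4.90 to 5.18. GPR183 in RSG at 8 h was at 11.29 in the same replicate 1, against 7.58 to 8.47. Replicate 1 of RSG at 8 h is 1 of the 5 arrays apart, and the values of GPR82 and GPR183 without it are given with the 54 arrays.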

How the results depend on the processing

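The 5 RSG against DMSO differences and the 2 time differences of each receptor, and the 7 counts of called genes, made 35 results. With the replicate number as a block, with no filter on detection, under an ordinary linear model and with all probes, the 28 receptor differences kept their sign, and the 20 of them that were tested kept their side of the threshold. With the block and with no filter the counts stayed within 1.5 times of their values. With the replicate block limma called 11 genes at 8 h, 4 at 12 h, 964 in DMSO and 495 in RSG from 0.5 to 3 h. Same-numbered arrays of RSG and DMSO were not alike, with mean residual correlations of -0.36, -0.27, -0.20, -0.44 and -0.01 at 0.5, 1.5, 3, 8 and 12 h. Within most groups the numbers still followed the residual sides, which this block does not take up. Without the 5 arrays apart, limma called 6 genes at 1.5 h, 132 at 8 h and 210 at 12 h, against 0, 11 and 3 with 59 arrays. From 0.5 to 3 h it called 2431 in DMSO and 1622 in RSG, against 1068 and 578, and the fall of GPR183 in RSG, -0.62, was then called (adjusted p = 0.0123). Without background correction the differences at 8 h were -0.52 for GPR34 and -0.67 for GPR82 with 59 arrays, and -0.46 and -0.60 with 54, where the fall of GPR183 in RSG was -0.55 and called (adjusted p = 0.0121). An offset of 50 gave -0.50 for GPR34 and -0.73 for GPR82 at 8 h. The authors' scaled table turned the sign of GPR82 at 0.5 h (-0.07) and gave 0.00 for GPR34 at 3 h in both sets. In that table GPR82 at 8 h was -1.81 with 59 arrays and -1.79 with 54, GPR34 at 12 h was -1.54 with 54, and 1 gene was called at 1.5 h and 5 at 12 h. A fit of only the 2 groups compared called GPR183 from 0.5 to 3 h in DMSO (-0.33, adjusted p = 0.0397) and RSG (-0.62, adjusted p = 0.0422). With the residual side as a block over 54 arrays, GPR183 (-0.56, adjusted p = 0.00344) and GPR18 (-0.43, adjusted p = 0.027) were called in RSG. Because the sides come from the residuals of these same arrays, this block narrows the spread by construction, and nothing is read from these calls. This block and the settings that join the 54 arrays with another change were chosen after seeing the data.

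Leaving out 1 array at a time, over both sets, gave at 0.5 h -0.03 to 0.16 for GPR82, -0.12 to 0.05 for GPR183 and -0.09 to 0.11 for GPR18, and at 1.5 h -0.27 to 0.02 for GPR18. From 0.5 to 3 h it gave -0.15 to 0.04 for GPR82 in DMSO and, in RSG, -0.72 to -0.57 for GPR183 and -0.60 to -0.41 for GPR18, the last called in 2 of 12 fits with 54 arrays. The genes called ranged from 0 to 5 at 1.5 h, 0 to 14 at 3 h, 5 to 129 at 8 h and 0 to 228 at 12 h, and from 752 to 2371 in DMSO and 321 to 2435 in RSG from 0.5 to 3 h. Without RSG replicate 6 of 0.5 h the RSG count was 1111 with 59 arrays and 2435 with 54. Without RSG replicate 1 of 8 h 21 genes were called at 8 h, and without RSG replicate 2 of 12 h 33 at 12 h. The cause of these shifts was not tested. GPR34 and GPR82 lay near background, detected on 10 and 26 of 59 arrays, so the size of their differences depends on how background is handled, and precision for all 4 is set by 4 to 6 arrays a group.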
